A study of Mus musculus and Homo sapiens with 4 samples.

Results

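Paraspeckle proteins are RNA-binding proteins that collect on the lncRNA NEAT1. The 9 examined here were NONO, SFPQ, PSPC1, RBM14, HNRNPK, TARDBP, NUDT21, CPSF6 and HNRNPH3, taken by gene symbol. They were sought among 25932 entries of the human files and 23329 entries of the mouse files, and all 9 were found in each species with at least 1 RPKM in every library. RPKM scales the reads of an entry by its length and by the mapped reads of the library, so levels of different genes can be compared within a library. Where a symbol stood on several entries, the entry with the highest mean RPKM was used. The members are described beside NEAT1, each species within itself.

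The series holds 4 RNA-seq libraries, 1 per group, from a study of how oestrogen receptor alpha (ERα) and NEAT1 act in prostate cancer. VCaP, a prostate cancer cell line, was grown to passages 5 to 6, and VCaP ERα, the same line made to stably overexpress ERα, to passages 4 to 5. Both were kept in DMEM with fetal bovine serum, and their libraries kept the strand and were made after ribosomal RNA was removed, although the labels also call them poly-A-. Mouse embryonic fibroblast (MEF) lines came from C57BL/6 E13.5 embryos, either wild type (WT) or NEAT1 knockout (KO), at passages 2 to 3, and their libraries were made from poly-A+ RNA. All MEFs were grown in DMEM and Ham F12 with fetal calf serum, and no oestrogen or other agent is named for any of the 4 libraries. The labels do not give the extent of the KO allele, whether embryos were pooled, or whether VCaP ERα is 1 clone. With 1 library per group there is no replicate spread, so no difference below has a test or a P-value.

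Paraspeckles are nuclear bodies built on the long isoform of NEAT1. NONO, SFPQ and PSPC1 form the DBHS family (Drosophila behaviour, human splicing), whose members pair with each other, coat NEAT1 and hold edited or unspliced RNA in the nucleus. RBM14 has a prion-like domain and bridges the parts of the body. NUDT21 and CPSF6 are subunits of cleavage factor Im, which favours the polyadenylation site that ends the short isoform of NEAT1. HNRNPK opposes that step and so favours the long isoform.

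The promoters of the 3 DBHS genes are shown first because their proteins are the core of the body and because their transcripts had the 3 lowest ratios of the human comparison. The promoters are those of mouse, and a link between their motifs and the human ratios was not tested. RefSeq promoters of mouse build GRCm38.p6, 300 bases from 250 before to 50 after the start, matched all 9 members. Nono lies at chrX:101429401-101429700 on the + strand, Sfpq at chr4:127021051-127021350 on the + strand, and Pspc1 at chr14:56778269-56778568 on the - strand. Sequences run 5′ to 3′ along the gene, and capitals mark matches on either strand to the CCAAT box (CCAAT), the GC box (GGGCGG), the YY1 motif (GCCATNTT) and the NRF1 motif.
Nono: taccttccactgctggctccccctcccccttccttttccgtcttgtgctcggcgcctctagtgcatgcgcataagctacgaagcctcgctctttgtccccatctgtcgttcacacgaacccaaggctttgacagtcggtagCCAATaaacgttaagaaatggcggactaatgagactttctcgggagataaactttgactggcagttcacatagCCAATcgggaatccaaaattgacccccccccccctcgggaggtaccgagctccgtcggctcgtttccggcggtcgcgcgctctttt
Sfpq: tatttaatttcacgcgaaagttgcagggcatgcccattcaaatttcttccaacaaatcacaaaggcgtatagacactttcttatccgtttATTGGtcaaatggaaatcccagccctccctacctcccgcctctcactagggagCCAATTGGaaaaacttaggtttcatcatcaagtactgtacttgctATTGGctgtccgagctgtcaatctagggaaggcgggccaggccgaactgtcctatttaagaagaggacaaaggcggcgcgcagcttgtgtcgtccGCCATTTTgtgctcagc
Pspc1: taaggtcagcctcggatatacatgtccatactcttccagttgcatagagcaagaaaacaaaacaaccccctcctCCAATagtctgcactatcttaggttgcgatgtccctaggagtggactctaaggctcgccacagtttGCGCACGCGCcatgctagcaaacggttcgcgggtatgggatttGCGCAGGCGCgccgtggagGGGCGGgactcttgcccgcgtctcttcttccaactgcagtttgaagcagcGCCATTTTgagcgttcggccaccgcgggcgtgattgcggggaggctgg

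A CCAAT box stood in all 3 of these promoters. Counted from 0 at the first transcribed base, it began at -109 and -36 in Nono, and in Sfpq at -160, -107, -104 and -62, of which the middle pair overlaps on opposite strands. Sfpq and Pspc1 also shared the YY1 motif just downstream of the start, at 33 and 2, and Pspc1 carried the NRF1 motif at -110 and -67 and a GC box at -48. Over all 9 members the CCAAT box was found in 6 promoters (Nono, Sfpq, Pspc1, Rbm14, Hnrnpk and Nudt21), against 37.4% of 32851 promoters of the same length. The GC box was found in 4 promoters (Pspc1, Tardbp, Cpsf6 and Hnrnph3), against 35.7% of all promoters. The NRF1 motif was found in 2 (Pspc1 and Rbm14, against 4.6%) and the YY1 motif in 2 (6.05%). An ETS motif (CCGGAAG) was found in 1, that of Nudt21 (8.86%). No member promoter held the letters of a TATA box (TATAAA, in 13.6% of all promoters), a cyclic AMP response element (TGACGTCA, 1.79%), a full oestrogen response element (0.07%) or an interferon-stimulated response element core (3.44%). GC content ranged from 48% in Sfpq to 73% over the members, with a median of 62% against 52.7% for all promoters.

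The targeted and labelled genes were examined before the members. ESR1, which encodes ERα, was at 15.7 RPKM in the library labelled VCaP, against 209 RPKM in VCaP ERα. Neat1 (chr19:5842301-5845478 of the mouse files) was at 29.5 RPKM in MEF WT and at 2.01 RPKM in MEF NEAT1 KO, and whether its entry lies inside the deleted part is not given. The library labelled VCaP, called the VCaP-labelled library below, went against its label. Of 12 prostate luminal markers 7 were below 1 RPKM in it, with 2 listed at 0, and their summed level was 20.3 RPKM against 2221 RPKM in VCaP ERα. Its 8 luminal breast markers summed to 4026 RPKM against 207 RPKM in VCaP ERα, with TFF1 at 1596 RPKM and GATA3 at 90.5 RPKM. Each human comparison below therefore rests on a library whose cell-type markers do not match its label, and the part this has in any difference cannot be told apart from that of ERα. Both MEF libraries expressed all 10 fibroblast markers, which summed to 7860 RPKM in WT and 8024 RPKM in KO. The 6 epithelial markers were near 0, at sums of 1.12 and 0.684 RPKM. Entries listed at 0 numbered 8757 and 3607 in the human libraries and 6858 and 6997 in the mouse libraries.

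The members' transcripts spanned more than an order of magnitude within each library, apart from VCaP ERα where the span was slightly smaller. NONO, SFPQ and HNRNPK took the first 3 places among the members in all 4 libraries, and RBM14 was the fourth in each. In the human libraries that place rests on an entry that RBM14 shares with a neighbouring gene, and by the entry that carries its symbol alone (2.15 and 5.61 RPKM) RBM14 would be the last. NONO was the highest member in the VCaP-labelled library (65.7 RPKM), in MEF WT (72.0 RPKM) and in MEF NEAT1 KO (59.5 RPKM), whereas HNRNPK was the highest in VCaP ERα (58.1 RPKM). With the shared RBM14 entry, the lowest member was HNRNPH3 in both human libraries (2.52 and 5.98 RPKM). In the mouse libraries it was Nudt21 (3.04 and 2.42 RPKM). Summed over the 9 members, the level was 234.2 RPKM in the VCaP-labelled library and 234.7 RPKM in VCaP ERα, and 260.2 RPKM in MEF WT and 212.9 RPKM in MEF NEAT1 KO. As a share of the RPKM of all entries, the members made up 0.0875% in the VCaP-labelled library and 0.119% in VCaP ERα, so the equal human sums hold on the deposited scale alone. The make-up of the human sum differed between libraries, whereas that of the mouse sum was similar.

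**Figure D1:**
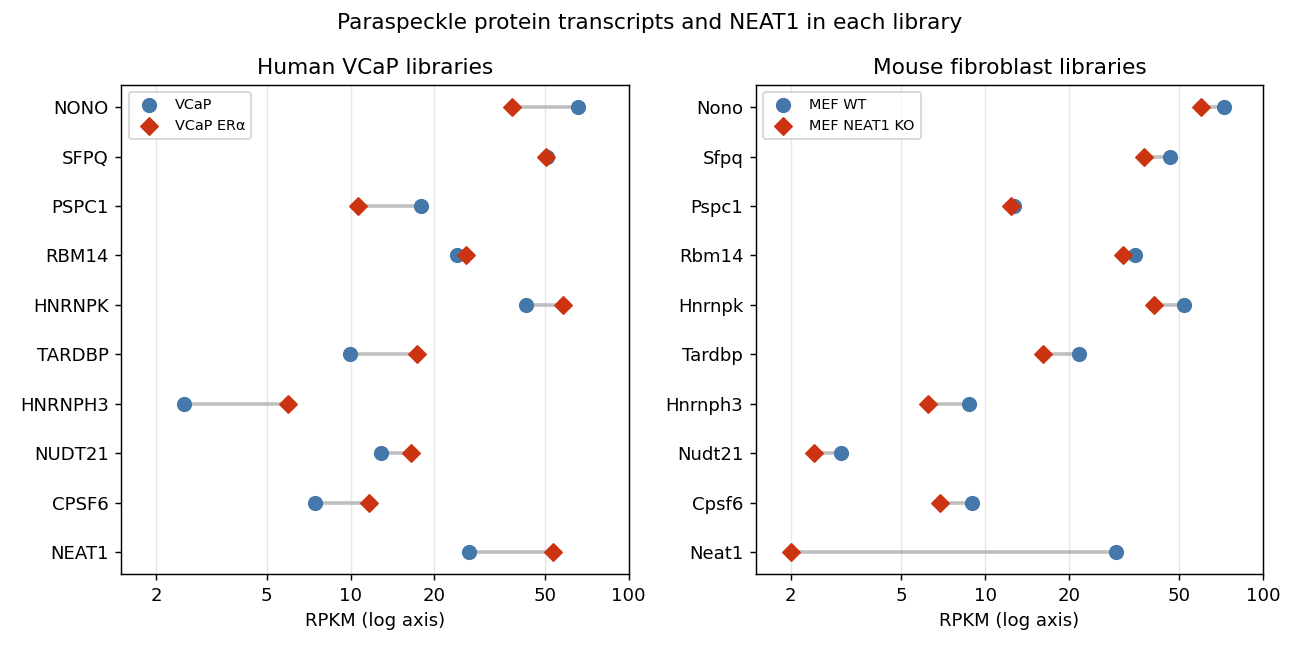
Level of each paraspeckle protein transcript and of NEAT1 in RPKM on a log axis, with human libraries on the left and mouse libraries on the right; circles are the control library, diamonds VCaP ERα or MEF NEAT1 KO, and each point is 1 library. In the mouse panel all 9 diamonds lie to the left of their circles by small steps while Neat1 goes from 29.5 to 2.01 RPKM, and in the human panel 6 diamonds lie to the right and 3 to the left.

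The human comparison asks how the members' transcripts stood in cells that overexpress ERα. Log2 ratios were taken of VCaP ERα over VCaP with 1 added to each RPKM, which understates differences of low genes. Of the 9 members, 6 were higher and 3 lower in VCaP ERα, beside 46.6% and 41.2% of all entries. By these ratios none was more than 2-fold higher, beside 9.16% of all entries, and none more than 2-fold lower, beside 18.5%. With 0.1 added in place of 1, HNRNPH3 passed 2-fold (log2 ratio 1.21) and the count was 1. The count of members more than 2-fold higher depended on the scaling. It was 4 after centring on the median of expressed entries, 5 after quantile normalization and 2 with equal RPKM sums. These alternatives move the other entries too, and the share of all entries past 2-fold under them was not counted. None of the members passed the study's threshold of 2 on the log2 scale. As deposited, 2.27% of all entries exceeded it, and 6.56% of all entries lay below -2. The members' median log2 ratio was 0.34, with a range from -0.77 to 0.99. The 9754 entries that reached 1 RPKM in both libraries had a median of -0.59. Of them 29.1% were higher and 70.9% lower in VCaP ERα, 7.89% more than 2-fold higher and 35.6% more than 2-fold lower. The typical expressed entry was therefore lower, and each member is also given relative to that median, which is called the centred ratio below.

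NEAT1 itself stood on a pair of neighbouring human entries. The 3′ entry (NCRNA00084, chr11:64949093-64963719 of the human files) was at 26.6 RPKM in the VCaP-labelled library and at 53.4 RPKM in VCaP ERα, with a log2 ratio of 0.98 and a centred ratio of 1.57. The 5′ entry (CR607557, chr11:64946821-64948808), which both isoforms share, was at 16.8 and 21.5 RPKM, a log2 ratio of 0.34. The 3′ entry was thus 1.58 times the 5′ entry in the VCaP-labelled library and 2.48 times in VCaP ERα. The paper's length for the short isoform exceeds the span of the 5′ entry, so the 3′ entry is probably shared in part. How reads of the isoforms were divided between these entries is not given, so their ratio does not measure the long isoform.

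Of the DBHS proteins, 2 were lower in VCaP ERα and 1 was level. NONO, which takes part in transcription, splicing and DNA repair, was at 65.7 RPKM in the VCaP-labelled library and at 38.1 RPKM in VCaP ERα, 42.0% lower (log2 ratio -0.77, centred -0.18). PSPC1, the paralogue first found in the bodies, was at 17.9 and 10.6 RPKM, 40.5% lower (log2 ratio -0.70, centred -0.11). These values put NONO and PSPC1 close to the typical expressed entry, and PSPC1 was slightly higher under quantile normalization (0.034). SFPQ, a splicing factor that NEAT1 can hold in paraspeckles, was at 51.0 and 50.3 RPKM (log2 ratio -0.02, centred 0.57). The direction of SFPQ thus depended on the scaling. A further entry inside its span that does not carry its symbol (chr1:35414569-35418670) was at 5.37 and 10.7 RPKM, a log2 ratio of 0.87. Within the family, SFPQ over NONO was 0.777 in the VCaP-labelled library and 1.32 in VCaP ERα, a ratio that no scaling by 1 factor can alter, while PSPC1 over NONO was 0.272 and 0.279. NONO made up 48.8% of the family's RPKM in the VCaP-labelled library and 38.5% in VCaP ERα, where SFPQ was the highest with 50.8%.

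The architectural protein RBM14 could not be read cleanly in the human files. Its highest entry joins RBM14, the neighbouring gene RBM4 and their fusion transcript (chr11:66140673-66170516). This entry was at 24.2 RPKM in the VCaP-labelled library and at 26.1 RPKM in VCaP ERα (log2 ratio 0.11, centred 0.70). An entry inside it that carries the symbol RBM14 alone (chr11:66150362-66153961) was at 2.15 and 5.61 RPKM, a log2 ratio of 1.07. RBM14 was higher in VCaP ERα by both, but past 2-fold only by the second, so its size is uncertain.

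The 3 members that bear on the 3′ end of NEAT1 (CPSF6, NUDT21 and HNRNPK) were higher in VCaP ERα. CPSF6, the larger subunit of cleavage factor Im, was at 7.47 RPKM in the VCaP-labelled library and at 11.7 RPKM in VCaP ERα (log2 ratio 0.58, centred 1.17). NUDT21, the smaller subunit that binds UGUA in RNA, was at 12.8 and 16.5 RPKM (log2 ratio 0.34, centred 0.93). HNRNPK, a poly-C-binding hnRNP, was at 42.7 and 58.1 RPKM (log2 ratio 0.44, centred 1.03). HNRNPK over NUDT21 was similar, at 3.32 in the VCaP-labelled library and 3.52 in VCaP ERα. NUDT21 over CPSF6 was 1.72 and 1.41. CPSF6 had a larger ratio of RPKM values than HNRNPK (1.56 against 1.36), so HNRNPK was lower relative to CPSF6 in VCaP ERα.

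With RBM14 read from the shared entry, TARDBP and HNRNPH3 had the largest ratios among the members. TARDBP encodes an RNA-binding protein that binds UG-rich RNA and forms aggregates in motor neuron disease. It was at 9.93 RPKM in the VCaP-labelled library and at 17.4 RPKM in VCaP ERα, 74.9% higher (log2 ratio 0.75, centred 1.34). HNRNPH3, a splicing factor of the hnRNP H family, was at 2.52 and 5.98 RPKM, 137% higher (log2 ratio 0.99, centred 1.58). HNRNPH3 was the lowest member in both libraries, and its ratio of RPKM values was 2.37 without the added 1. Its entry overlaps those of PBLD (1.93 and 1.81 RPKM) and RUFY2 (1.92 and 1.35 RPKM), both of which were lower in VCaP ERα.

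**Figure D2:**
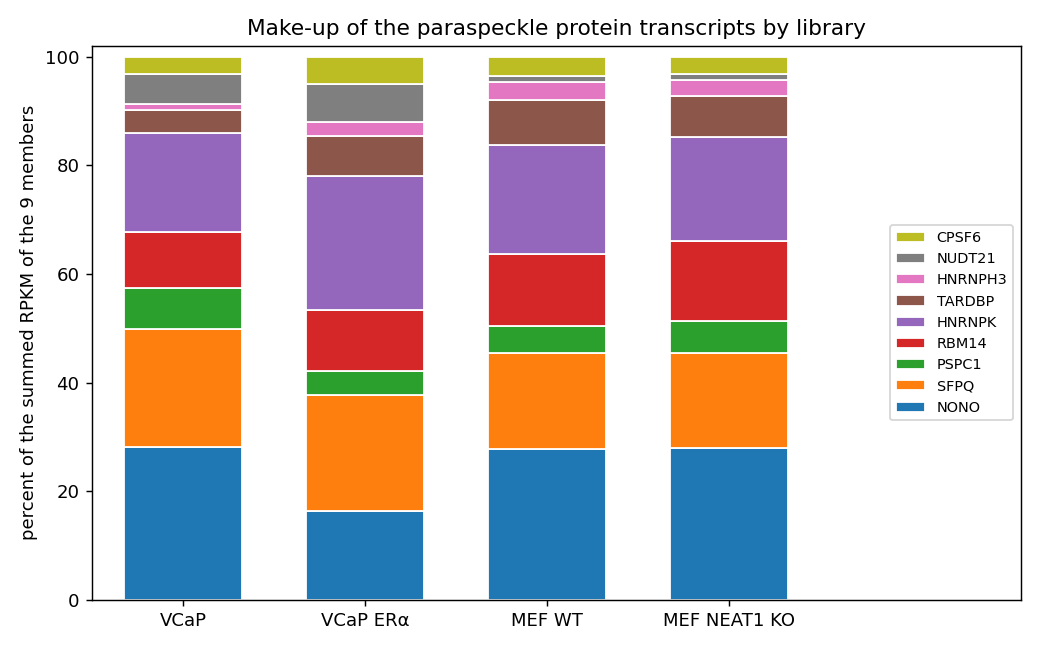
Share of each member in the summed RPKM of the 9 members, in percent, with 1 bar per library. The human bars differ mainly in NONO (28.1% in the VCaP-labelled library, 16.2% in VCaP ERα) and HNRNPK (18.2% and 24.7%), whereas the MEF bars are nearly alike (Nono 27.7% and 28.0%).

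The members' level relative to NEAT1 depended on which NEAT1 entry was used. Their sum was 8.80 times the 3′ NEAT1 entry in the VCaP-labelled library and 4.40 times in VCaP ERα, and 13.9 and 10.9 times the 5′ entry. Relative to the 3′ entry 1 member was higher in VCaP ERα (HNRNPH3, and also RBM14 if read from its own entry), and relative to the 5′ entry 5 members were (HNRNPK, TARDBP, NUDT21, CPSF6 and HNRNPH3), although NUDT21 barely so. NONO was 2.47 times the 3′ entry in the VCaP-labelled library and 0.715 times in VCaP ERα. HNRNPK stayed above the 3′ entry in both (1.60 and 1.09 times), and HNRNPH3 was at 0.0949 and 0.112 times.

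The mouse comparison asks how the same transcripts stood when Neat1 was disrupted. All 9 members were lower in MEF NEAT1 KO than in MEF WT, beside 43.2% of all 23329 entries and 60.9% of the 10888 entries that reached 1 RPKM in both. None was more than 2-fold lower (0.334% of all entries and 0.56% of the expressed ones were) and none more than 2-fold higher (0.977% and 1.68%). All 9 lay within 0.5 of 0 on the log2 scale, as did 93.3% of all entries and 89% of the expressed ones. Their median log2 ratio of KO over WT was -0.30, with a range from -0.43 to -0.04, beside a median of -0.06 for the expressed entries. Neat1, in contrast, was 93.2% lower in the KO (log2 ratio -3.34), and the 9 members together were at 106 times its level in the KO against 8.83 times in WT. By its identifier the mouse Neat1 entry matches a reference transcript of 3004 bases, and the libraries are poly-A+. These values therefore do not measure the long isoform by itself.

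**Figure D3:**
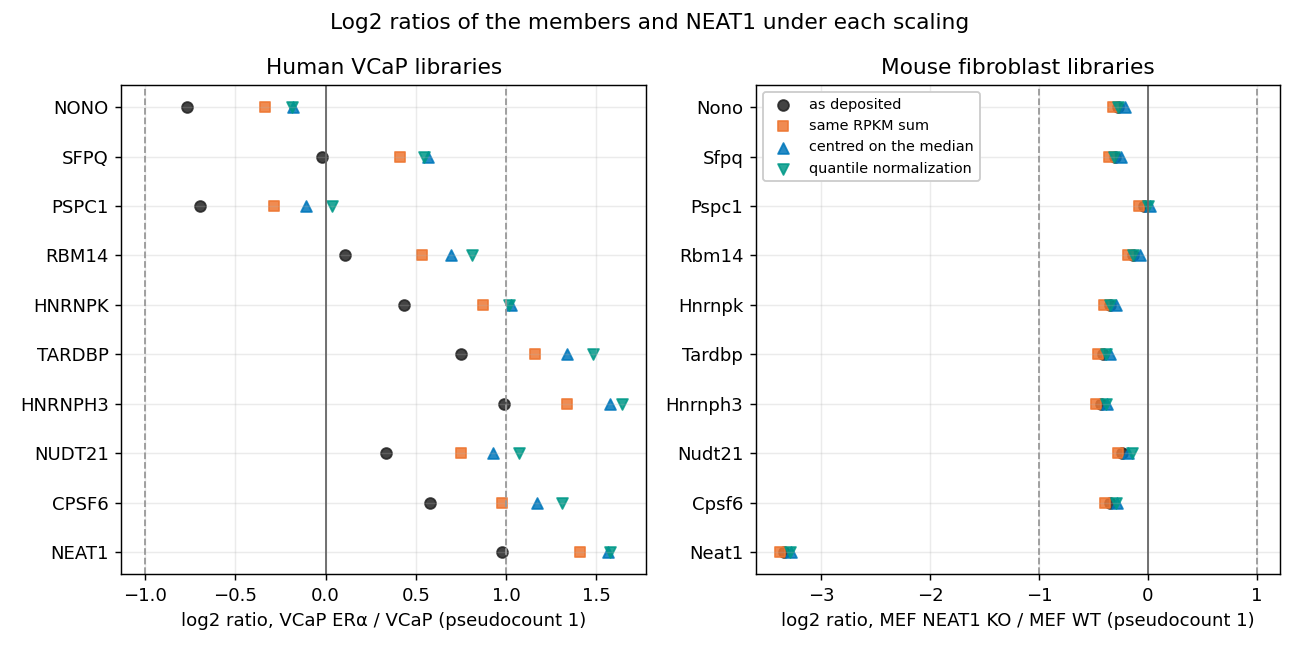
Log2 ratios of the members and NEAT1 (1 added to each RPKM) as deposited, with RPKM sums set equal, centred on the median of entries that reached 1 RPKM in both libraries, and after quantile normalization; dashed lines mark 2-fold. Human ratios move to the right under each scaling, and of the members HNRNPK, TARDBP, CPSF6 and HNRNPH3 pass 2-fold when centred. Other human entries move too, and their share past 2-fold under these scalings was not counted. Mouse ratios hardly move and Neat1 stays near -3.34.

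Among the DBHS genes, Nono was at 72.0 RPKM in WT and at 59.5 RPKM in KO, 17.4% lower (log2 ratio -0.27). Sfpq was at 46.4 and 37.4 RPKM, 19.4% lower (log2 ratio -0.30). Pspc1, at 12.7 and 12.4 RPKM, was only 2.75% lower, and when centred its ratio was 0.022 in the other direction. Pspc1 was thus level in the pair of MEF libraries, and the other 8 members were lower under each scaling tried. Sfpq over Nono was 0.643 in WT and 0.628 in KO, so the balance that differed between the human libraries was nearly the same here.

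Rbm14, on an entry of its own in the mouse files, was at 34.5 RPKM in WT and at 31.4 RPKM in KO, 9.20% lower. The 3′ end factors were lower by similar amounts. Hnrnpk was at 52.1 and 40.7 RPKM, 22.0% lower (log2 ratio -0.35). Cpsf6 was at 9.01 and 6.87 RPKM, 23.7% lower (log2 ratio -0.35), and Nudt21 at 3.04 and 2.42 RPKM, 20.3% lower (log2 ratio -0.24). Nudt21 over Cpsf6 was 0.337 and 0.352, so the pair kept its ratio.

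Tardbp and Hnrnph3 had the lowest mouse ratios. Tardbp was at 21.7 RPKM in WT and at 16.1 RPKM in KO, 25.7% lower (log2 ratio -0.41). Hnrnph3 was at 8.73 and 6.22 RPKM, 28.7% lower (log2 ratio -0.43). Where reads were not counted by strand, reads of overlapping genes cannot be told apart, and Hnrnph3 overlaps Rufy2 (3.25 and 2.77 RPKM), Tardbp overlaps Masp2 (1.73 and 1.09 RPKM), and Hnrnpk overlaps Rmi1 (2.68 and 2.23 RPKM). Each of these neighbours was far below the member beside it, except that Rufy2 was within an order of magnitude of Hnrnph3.

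The MEF differences can be set against counting error but not against the spread between cultures. Among low entries, RPKM multiplied by transcript length clustered at multiples of 0.0319 in WT and 0.0338 in KO, with 32.8% and 34.9% of them within 0.05 of a whole multiple where even spacing would give 10%. If 1 step is 1 read, the libraries held about 31400000 and 29600000 reads. Under that assumption Hnrnpk stood on about 4374 and 3222 reads, with a counting standard error of 0.033 beside its log2 ratio of -0.35. The standard errors are for read ratios without the added 1, which shrinks the log2 ratios given, most for low genes such as Nudt21. Cpsf6 stood on about 1844 and 1328 reads (standard error 0.052) and Hnrnph3 on about 606 and 407 (0.092). Nudt21, with about 478 and 359 reads and a standard error of 0.10, and Pspc1, with a standard error of 0.051 for a ratio of -0.04, were the least certain in this respect. Nono, Sfpq and Tardbp combine several transcripts and gave no such estimate, and the steps of the human libraries were ambiguous. In bulk RNA, fewer cells of a type and less RNA per cell cannot be told apart.

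Other gene groups differed between the MEF libraries at the same time. All 10 interferon response genes were more than 2-fold higher in the KO, with summed levels of 43.7 RPKM in WT and 670 RPKM in KO, and Isg15 at 20.8 and 319 RPKM. The 8 macrophage markers were all higher in the KO, 3 of them more than 2-fold, with sums of 19.6 and 49.6 RPKM and Lyz2 at 13.9 and 34.7 RPKM, and 4 of them stayed below 1 RPKM in the KO. Of the 10 fibroblast markers, 8 were higher and 2 were more than 2-fold higher in the KO (Pdgfra and Dcn). The part of these differences in the lower levels of the members was not tested.

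Further genes of the same pathways were compared to place the members. Of 29 other proteins reported in paraspeckles, 28 had a human entry, of which 10 were higher and 18 lower in VCaP ERα, with a median log2 ratio of -0.27, and 3 were more than 2-fold higher and 7 more than 2-fold lower. The highest were RBM7, a subunit of the nuclear exosome targeting complex (3.77 RPKM in the VCaP-labelled library, 13.4 RPKM in VCaP ERα), TAF15 (1.38 and 5.20 RPKM) and HNRNPA1 (3.27 and 8.67 RPKM). Among the lowest were SMARCA4, the ATPase of the SWI/SNF remodelling complex that paraspeckles need (13.6 and 2.52 RPKM), and AKAP8L (17.9 and 4.94 RPKM). CPSF7, the alternative large subunit of cleavage factor Im, was at 19.2 and 14.4 RPKM (log2 ratio -0.40), on the other side of 0 from CPSF6. HNRNPH1, the close relative of HNRNPH3, was at 35.2 and 58.7 RPKM (log2 ratio 0.72).

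Of 15 other hnRNP and related RNA-binding proteins, 6 were higher and 9 lower in VCaP ERα, with 5 more than 2-fold lower and a median log2 ratio of -0.59. PTBP1, a repressor of splicing, was the lowest (47.6 and 12.6 RPKM), and HNRNPA3 the highest (4.59 and 9.96 RPKM). Of 13 core cleavage and polyadenylation factors, 5 were higher and 8 lower, with 5 more than 2-fold lower and a median of -0.88. CSTF2, which binds downstream of the cleavage site, was the lowest (10.7 and 2.00 RPKM), and CSTF3 the highest (4.65 and 8.10 RPKM). The 12 housekeeping genes had a median of -1.05. The members' median of 0.34 lay above the medians of all 4 lists, but the lists overlapped widely and the difference was not tested. The members and the lists were also chosen with earlier results of these data known.

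In the MEFs, 24 of 29 other paraspeckle proteins were lower in the KO, with a median log2 ratio of -0.16, and none passed 2-fold. Srsf10 (6.69 RPKM in WT, 4.05 RPKM in KO), Hnrnpa1 (27.1 and 19.7 RPKM) and Hnrnpm (80.1 and 61.2 RPKM) were the lowest. All 15 other hnRNP and related proteins were lower as well, with a median of -0.25. The lowest was Matr3, a nuclear matrix protein that can bind with SFPQ and NONO (24.2 and 13.9 RPKM, log2 ratio -0.76), followed by Syncrip (12.1 and 7.85 RPKM). Of 13 core cleavage and polyadenylation factors, 10 were lower, with a median of -0.11, and of 12 housekeeping genes 7 were lower, with a median of -0.07. Slightly lower levels in the KO were thus seen in the other RNA-binding lists also, and not in the members alone.

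**Figure D4:**
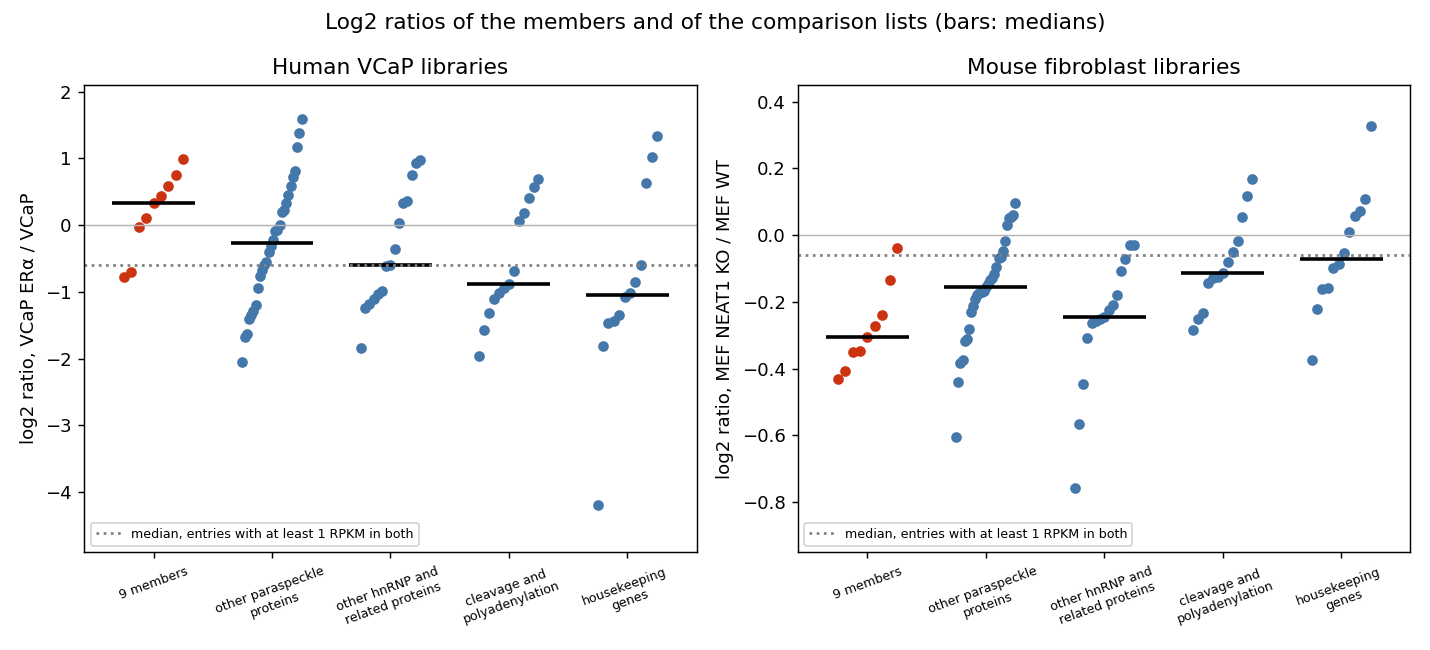
Log2 ratio of every gene in the members and in 4 comparison lists, with bars at the medians and a dotted line at the median of entries that reached 1 RPKM in both libraries; the vertical scales of the panels differ. The members' median is 0.34 in the human panel, where the list medians run from -0.27 to -1.05. In the mouse panel it is -0.30, and the list medians run from -0.07 to -0.25. Members and lists were chosen with earlier results of these data known.

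Set side by side, 6 of 9 members (66.7%) were higher in VCaP ERα and lower in MEF NEAT1 KO, and the other 3 (NONO, SFPQ and PSPC1) were lower in both. Over 7472 genes that reached 1 RPKM in all 4 libraries, 19.4% were higher in VCaP ERα and lower in the KO, and 44.2% were lower in both. The second group held the whole DBHS family, and the first held RBM14, TARDBP and the hnRNP and cleavage factor Im genes. These groups are by sign alone, and SFPQ was level in the human libraries (log2 ratio -0.02), as was Pspc1 in the MEFs (-0.04). After centring, SFPQ moved to the first group in the human libraries and Pspc1 was higher in the KO.

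**Figure D5:**
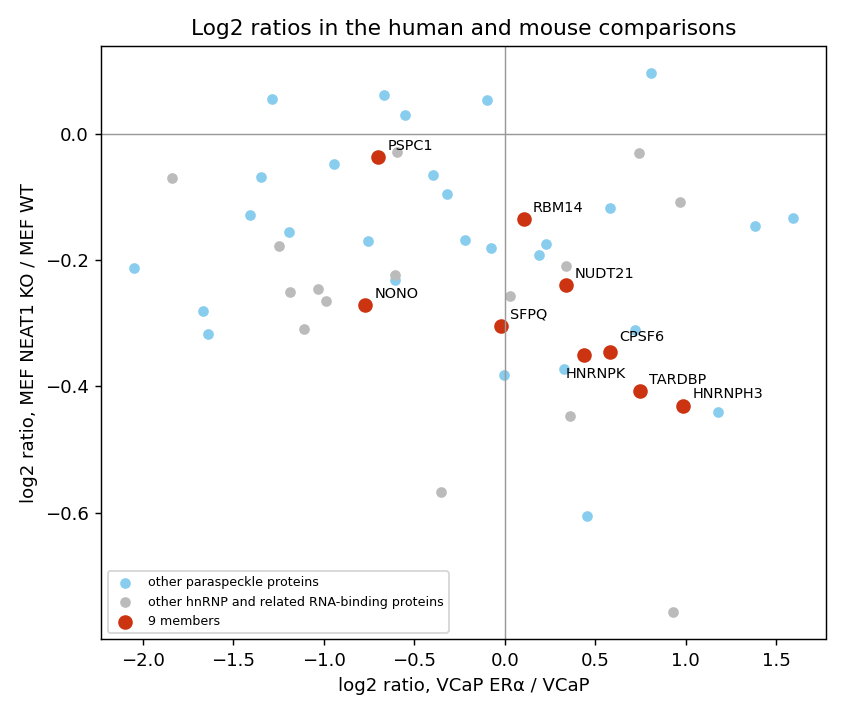
Log2 ratio of KO over WT in MEFs (vertical) against that of VCaP ERα over VCaP (horizontal) for the 9 members, for other paraspeckle proteins and for other hnRNP and related proteins, 1 point per gene. All 9 members lie below 0 on the vertical axis, and those farthest to the right, HNRNPH3 and TARDBP, are the lowest of the 9; RBM14 is plotted by its shared human entry.

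With RBM14 read from its shared entry, members with higher human ratios tended to have lower mouse ratios, although the mouse ratios spanned only -0.43 to -0.04. Across the 9 members Spearman's rho between the comparisons was -0.80 and Pearson's r -0.74, given as a description over genes that share the same 4 libraries. With RBM14 read from its own human entry, rho was -0.42 and r -0.47, so the value rests in part on that entry. Spearman's rho was -0.18 over the 7472 shared genes, -0.15 over 28 other paraspeckle proteins, -0.13 over 15 other hnRNP and related proteins, and -0.20 over 13 cleavage and polyadenylation factors.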

How the data were processed

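RNA-seq libraries of VCaP, VCaP ERα, MEF WT and MEF NEAT1 KO cells were used, 1 per group, and groups were taken from the sample labels. The authors computed and deposited RPKM values per gene entry, with no normalization between libraries stated. CASAVA 1.8 and the builds mm10 and hg18 are named in the submitters' processing notes. The aligner and the counting tool are not given in the sources used here. Total reads are not stated, so depth is unknown for the human libraries and was estimated for the MEF libraries from the steps between low values. These estimates cover counting error only.

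Every entry was kept. Log2 ratios of VCaP ERα over VCaP and of MEF NEAT1 KO over MEF WT were computed with a pseudocount of 1, and entries above 1 or below -1 were counted as 2-fold. No test was made. The genes named were the 9 members and NEAT1 on every entry, ESR1, and of each list its 3 highest and 3 lowest ratios among genes with at least 1 RPKM in 1 library. Genes of the hnRNP and cleavage factor Im groups of the paraspeckle list could be named whatever their value. Some genes within the rule are not reported here. TFF1, GATA3, Isg15 and Lyz2 are examples from the marker lists under the same rule. The members and the lists were chosen with earlier results of these data known. Mouse promoters came from RefSeq, and human promoters and protein sequences were not analysed here. The scripts were tested on simulated data. Alternatives tried were centring, quantile normalization, equal RPKM sums, a pseudocount of 0.1, a 1 RPKM minimum, the mean ratio over every entry of a symbol and, chosen after seeing the data, other entries for RBM14 and NEAT1. Python 3.11.15, numpy 2.4.6, pandas 2.3.3, scipy 1.17.1 and matplotlib 3.10.9 were used.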

Additional observations from a re-analysis of the deposited data

How the results depend on the processing

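The 9 human members included 0 more than 2-fold higher, a count that became 1 with a pseudocount of 0.1, 4 after centring on the median, 5 after quantile normalization, 2 with equal RPKM sums and 1 with RBM14 read from its own entry. The pseudocount and the scalings move other entries too, and the share of all entries past 2-fold under them was not counted. The members' human median of 0.34 became 0.93 after centring and 1.02 after quantile normalization. The human log2 ratio of NEAT1, 0.98, became 1.57 after centring, 1.57 after quantile normalization and 0.34 when read from the 5′ entry. Taking a log2 value as kept within 0.58 and a count within 1.5 times, these 10 of 52 alternatives moved a summary or NEAT1 value. The other 42, which include every mouse one, stayed within these limits, although equal RPKM sums gave a human median of 0.75 and a NEAT1 ratio of 1.41. The mean over every entry of a symbol gave 0.66 for human NEAT1 and 0.59 for RBM14, and a pseudocount of 0.1 gave -3.81 for mouse Neat1. Of 117 single-member ratios 6 changed sign, for SFPQ (0.57 centred, 0.55 quantile, 0.41 equal sums), human PSPC1 (0.034 quantile) and mouse Pspc1 (0.022 centred, 0.0002 quantile). No paired analysis was possible because each group holds 1 library and the labels carry no replicate numbers; for the same reason no library could be left out. Depth limits the human values by an unknown amount.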
